A study of Mus musculus with 12 samples.

Results

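The 10 genes described here, in the mouse heart, encode enzymes, or parts of enzymes, that make or remove superoxide or hydrogen peroxide. Nox4, Cybb, Cyba, Ncf1 and Ncf4 encode parts of the NADPH oxidases, and Xdh encodes xanthine oxidoreductase. Sod1, Sod2 and Sod3 encode the superoxide dismutases, and Cat encodes catalase. They were chosen by name, as table rows carrying these gene symbols, and the rows were summed per gene. They make up 10 of the 33615 gene symbols in the table, of which 25902 had any count, and 35 of its 104952 transcripts. All 10 passed the filter on low counts and were tested.

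Bulk RNA sequencing of frozen heart tissue compared 3 groups of mice, with 4 libraries in each. Hearts of the first group, I/R + ML264, went through 30 min of ischemia and 2 h of reperfusion in mice given ML264, a small molecule used to inhibit the transcription factor KLF5. Hearts of the I/R group had the same injury without ML264. The Sham group was operated on without the injury, and its labels also carry a time of 2 h. Neither strain, sex and age nor the dose, timing and vehicle of ML264 are given in the sources used here. Nor do the labels say which region of the heart was sampled, and they leave out whether the libraries are from different mice. The p-values below therefore measure the spread between these libraries, and how much of it is technical is not known. Within the I/R and I/R + ML264 groups, the Y-linked gene Ddx3y was near 0 in some libraries and not in others. Neither of these groups therefore comes from a single mouse.

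Superoxide is formed when an enzyme passes a single electron to oxygen. NADPH oxidases do this as their main task, with a catalytic membrane subunit (Nox4, or the product of Cybb in phagocytes and other cells), a membrane partner encoded by Cyba and, for the Cybb enzyme, cytosolic organisers that include the products of Ncf1 and Ncf4. Xanthine oxidoreductase, the enzyme that forms urate in purine breakdown, releases superoxide and hydrogen peroxide in its oxidase form. It has long been studied as an oxidant source in reperfused tissue. Superoxide dismutases turn superoxide into hydrogen peroxide in the cytosol (Sod1), the mitochondrial matrix (Sod2) and outside the cell (Sod3), and catalase splits the peroxide into water and oxygen.

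The libraries held 22.26 to 29.93 M (mega) estimated counts each, of which 35.24% to 41.13% came from mitochondrially encoded transcripts. All 12 cardiomyocyte markers were detected, with sums of 101800 to 112200 CPM in I/R + ML264 hearts, 98990 to 113900 CPM in I/R hearts and 94300 to 107800 CPM in Sham hearts, where CPM are counts per M counts of the library, scaled by the TMM factors of edgeR. Klf5, whose protein ML264 is meant to inhibit, had only 2 to 15 counts per library, and its mRNA is no check of the inhibitor. I/R + ML264 library 2 stood apart from the rest. On the first dimension of a multidimensional scaling it lay at 1.08, among the I/R libraries at 0.66 to 1.33, while the other I/R + ML264 libraries lay at -0.27 to 0.31 and the Sham libraries at -1.37 to -0.71. On the second dimension it lay at 1.39 and all others at -0.82 to 0.56. Results that rest on it are given with and without it. The libraries also differed in ways that the groups do not give. The Y-linked gene Ddx3y had 38.79 to 51.97 CPM in 8 libraries (I/R + ML264 3 and 4, I/R 2 and 3, and Sham 1 to 4), while the other 4 had 0.11 to 0.48 CPM. The clock gene Arntl, part of the core circadian loop, had 10.39 to 15.32 CPM in 3 libraries (I/R 1, Sham 2 and Sham 3) and 1.05 to 3.26 CPM in the other 9.

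None of the 10 genes was called changed in any of the 3 comparisons at a Benjamini-Hochberg adjusted p under 0.05 by the quasi-likelihood test of edgeR, fitted over all 15952 genes tested and all 12 libraries. Xdh was the gene that came nearest, with more mRNA in I/R + ML264 hearts than in I/R hearts by an estimated 1.56-fold. Of the other 9, Sod2 was 1.19-fold higher in I/R + ML264 hearts than in Sham hearts by estimate. Sod3 was lower in every I/R heart than in any Sham heart. Between these groups, 15.8% of all genes tested did not overlap, in either direction. Neither Sod2 nor Sod3 passed the test. In bulk tissue, fewer cells of a type and less RNA per cell cannot be told apart. The 3 comparisons share libraries with each other, so their values are not independent.

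In I/R hearts against Sham hearts, edgeR called 0 of the 10 genes and 7.75% of all genes tested. At an unadjusted p under 0.05, 0 of the 10 genes passed, beside 23.2% of all genes tested. DESeq2 and limma voom with library weights each called 0 of them, beside 1779 of 15933 and 1442 of 15952 genes tested. By either tool, 0 of them were at an unadjusted p under 0.05. The median log2 fold change of the 10 genes was -0.07, beside 0.0 over all genes tested, and the median of its size without sign was 0.17, beside 0.22 over all genes tested. The 95% interval of the fold change lay within 2-fold either way for 9 of the 10 genes. The exception was Ncf4, at -1.51 to 1.02 on the log2 scale.

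In I/R + ML264 hearts against I/R hearts, edgeR called 0 of the 10 genes and 0.0502% of all genes tested. Xdh alone passed an unadjusted p under 0.05, beside 10.4% of all genes tested. DESeq2 called 1 of the 10 genes, Xdh, beside 153 of 15314 genes tested, and limma voom called 0, beside 8 of 15952. Xdh alone was at an unadjusted p under 0.05 by either tool. The estimated difference was positive for 8 genes and negative for 2, with a median log2 fold change of 0.12 beside 0.0 over all genes tested. The median size without sign was 0.12, beside 0.16 over all genes tested. Intervals lay within 2-fold for 8 of the 10 genes, Ncf4 and Xdh being the exceptions.

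In I/R + ML264 hearts against Sham hearts, edgeR called 0 of the 10 genes and 0.288% of all genes tested. Xdh and Sod2 passed an unadjusted p under 0.05, as 13% of all genes tested did. DESeq2 called 1 of the 10 genes, Xdh, beside 370 of 15933 genes tested, and limma voom called 0, beside 41 of 15952. By either tool the same pair, Sod2 and Xdh, was under 0.05 before adjustment. The median log2 fold change was 0.04 beside 0.0 over all genes tested, and the median size without sign was 0.18 beside 0.17. Intervals again lay within 2-fold for 8 of the 10 genes, with Ncf4 and Xdh outside.

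**Figure D1:**
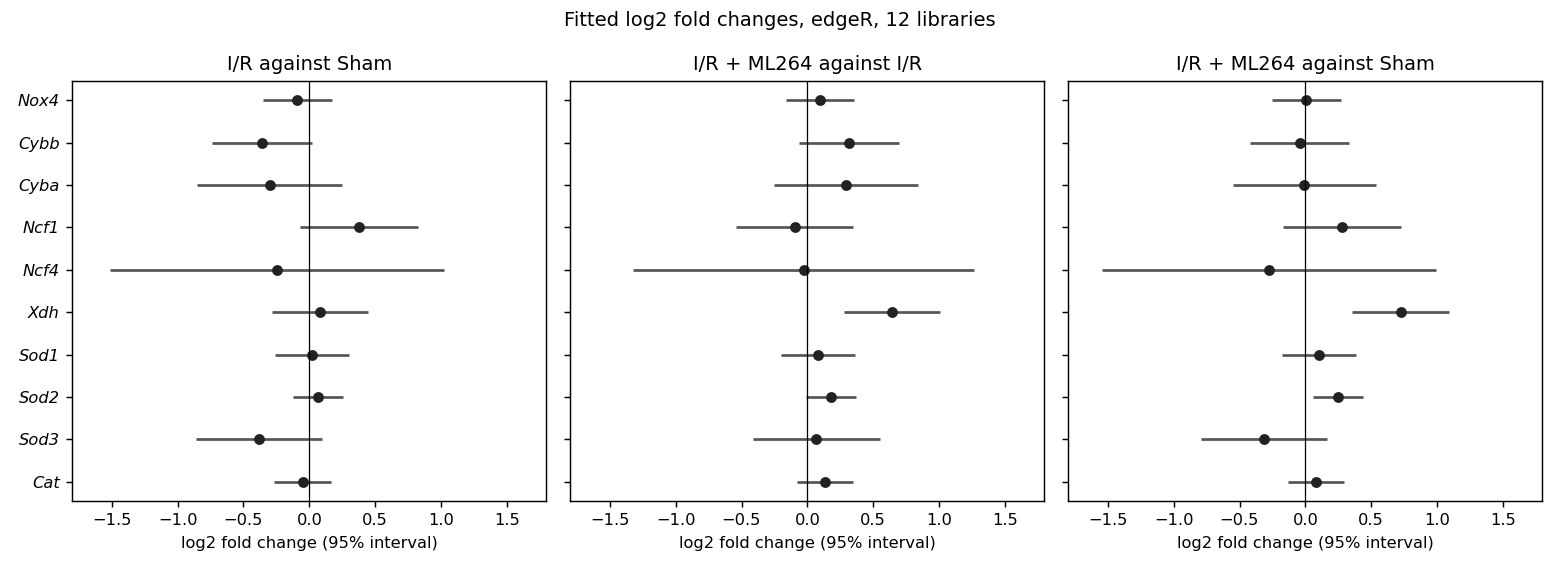
Fitted log2 fold changes (x axis) of the 10 genes (y axis) in the 3 comparisons, from edgeR over 12 libraries, with lines for the 95% interval. The interval of Xdh lies above 0 in both comparisons of I/R + ML264 hearts, at 0.28 to 1.01 against I/R hearts and 0.36 to 1.09 against Sham hearts, that of Sod2 does so against Sham hearts at 0.06 to 0.44, and Ncf4 has the widest interval in each panel.

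Levels of different genes were compared per kilobase of the principal transcript in the GENCODE M21 annotation, as CPM per kb over the 12 libraries. Cat was highest at 76.4 ± 8.50 CPM per kb (SD, n = 12), and its lowest library lay above the highest library of every other gene. Sod1 followed at 25.2 ± 3.28 and Sod2 at 23.8 ± 2.86 CPM per kb, a pair whose ranges overlapped, with Sod1 the higher in 8 of 12 libraries. Xdh came next at 12.4 ± 3.77 CPM per kb, the highest of the 6 genes for oxidant-forming enzymes or their parts, and its range overlapped with neither neighbour in the order. The oxidase genes Nox4 (2.84 ± 0.283), Cyba (2.78 ± 0.736), Cybb (1.99 ± 0.436) and Ncf1 (1.89 ± 0.440), with Sod3 (1.801 ± 0.4577 CPM per kb), overlapped in range with their neighbours in the order. Ncf4 was lowest at 0.283 ± 0.154 CPM per kb, below every library of the others. The lengths are approximate for Xdh, Sod1 and Sod2, whose principal transcript in GENCODE M21 does not stand in the table in the same version. Of the summed level per kb of the 3 dismutases, Sod3 made up 1.6% to 5.0% in I/R + ML264 hearts (median 3.1%), 3.0% to 3.4% in I/R hearts (median 3.3%) and 3.5% to 5.1% in Sham hearts (median 4.4%). Its range in I/R hearts lay under that in Sham hearts, while the shares of Sod1 and Sod2 overlapped between all groups.

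**Figure D2:**
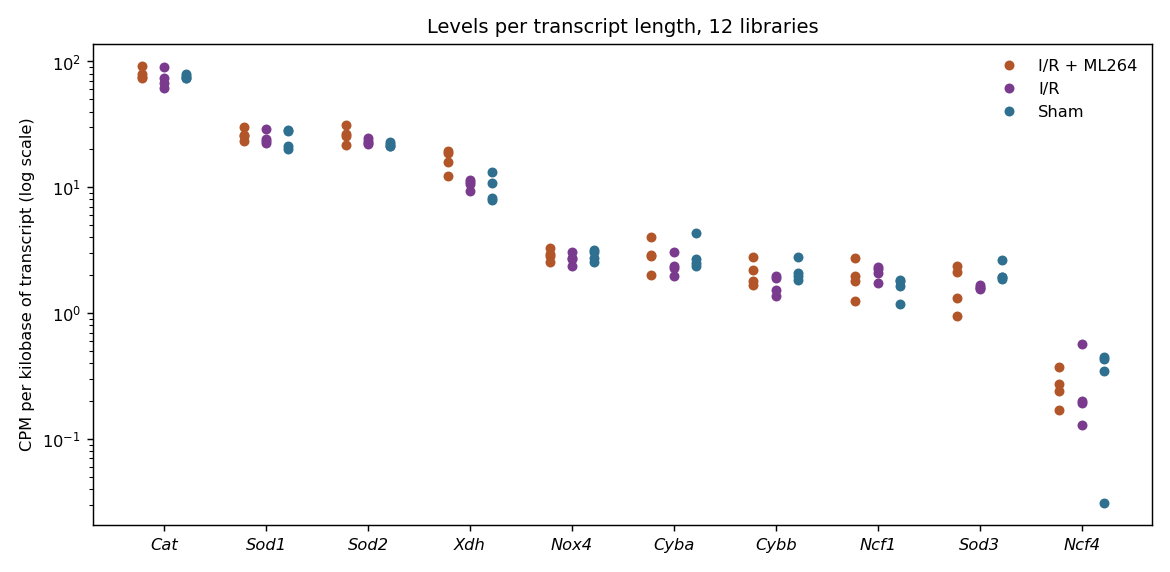
Level of each gene per kilobase of transcript (y axis, CPM per kb, log scale) in every library, with genes along the x axis from the highest to the lowest mean over 12 libraries and points coloured by group (I/R + ML264, I/R, Sham). Cat lies above all others, Sod1, Sod2 and Xdh lie between 7.86 and 31.2 CPM per kb, and Ncf4 lies lowest, with a single Sham library at 0.0309 CPM per kb.

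KLF family proteins bind CACCC boxes and GC-rich boxes in DNA, so promoters were read from 250 bases before to 50 after the gene start in the RefSeq promoter table (GRCm38.p6), which matched 7 of the 10 genes, with no entry for Ncf4, Xdh and Sod3. Both strands were searched for CACCC (read as GGGTG on the other strand) and for GGGCGG (read as CCGCCC); a match of one motif can overlap one of the other by its end letters. Of all 27025 promoters in the table, 56.7% held CACCC and 35.9% held GGGCGG. The first motif, CACCC, stood 4 times in the promoter of Cat, 3 times in that of Nox4 and 1 time each in those of Cyba and Ncf1, and was not found in those of Cybb, Sod1 and Sod2. The other, GGGCGG, stood 4 times each in the promoters of Sod1 and Sod2, 2 times in that of Cyba, 1 time each in those of Nox4, Ncf1 and Cat, and was not found in that of Cybb. The promoters of Cat and Nox4, with the most CACCC matches, and of Sod2, with the most GGGCGG matches beside Sod1, are shown 5′ to 3′ on the strand of the gene, with matches to either motif on either strand in capitals. They lie at chr2:103485104-103485403 on the minus strand (Cat), chr7:87246399-87246698 on the plus strand (Nox4) and chr17:13007589-13007888 on the plus strand (Sod2). The gene spans given below, from GENCODE M21, start further upstream for Nox4 (87246096) and Sod2 (13006846). The windows printed for these 2 genes therefore lie inside those spans. Their GC content was 62.0% for Cat, 68.3% for Nox4 and 64.3% for Sod2. A match describes the letters and is no evidence that a factor binds there.
Cat promoter: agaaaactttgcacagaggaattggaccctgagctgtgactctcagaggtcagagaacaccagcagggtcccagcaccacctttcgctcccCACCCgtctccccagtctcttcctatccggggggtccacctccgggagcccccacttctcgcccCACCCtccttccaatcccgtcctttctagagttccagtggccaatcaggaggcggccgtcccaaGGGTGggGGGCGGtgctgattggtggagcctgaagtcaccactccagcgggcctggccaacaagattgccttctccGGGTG
Nox4 promoter: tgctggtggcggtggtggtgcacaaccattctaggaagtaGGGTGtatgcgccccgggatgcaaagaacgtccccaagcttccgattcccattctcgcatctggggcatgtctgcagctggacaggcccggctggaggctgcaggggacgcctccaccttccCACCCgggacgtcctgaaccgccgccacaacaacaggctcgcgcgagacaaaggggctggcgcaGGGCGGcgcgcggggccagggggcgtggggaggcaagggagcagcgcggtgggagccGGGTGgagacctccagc
Sod2 promoter: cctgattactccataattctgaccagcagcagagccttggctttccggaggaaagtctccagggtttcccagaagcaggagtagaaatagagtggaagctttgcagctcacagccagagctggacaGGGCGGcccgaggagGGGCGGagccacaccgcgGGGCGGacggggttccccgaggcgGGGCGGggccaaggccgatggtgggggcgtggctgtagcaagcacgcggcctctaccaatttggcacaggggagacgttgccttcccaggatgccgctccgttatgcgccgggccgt

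Nox4 (GRCm38 chromosome 7, 87246096 to 87398710, plus strand) encodes a constitutively active oxidase that releases mainly hydrogen peroxide. It had 11.03, 12.43, 10.71 and 9.481 CPM in I/R + ML264 hearts 1 to 4, 10.11, 10.34, 11.46 and 8.947 CPM in I/R hearts, and 11.99, 11.55, 10.35 and 9.618 CPM in Sham hearts. All 3 groups overlapped. The log2 fold change was -0.09 ± 0.12 (SE) in I/R against Sham hearts (95% interval -0.35 to 0.17, edgeR adjusted p = 0.722). It was 0.10 in I/R + ML264 against I/R hearts (-0.16 to 0.36, adjusted p = 0.83) and 0.01 in I/R + ML264 against Sham hearts (-0.25 to 0.27, adjusted p = 0.985). Leaving out 1 library at a time gave -0.15 to -0.03 in I/R against Sham hearts and 0.03 to 0.16 in I/R + ML264 against I/R hearts. The 95% intervals are among the narrowest of the 10 genes and leave room for a change of up to 1.28-fold by the upper bound against I/R hearts.

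Cybb (chromosome X, 9435252 to 9487771, minus strand) encodes the catalytic subunit of the phagocyte oxidase. It had 10.5, 7.94, 8.49 and 13.2 CPM in I/R + ML264 hearts, 6.55, 9.36, 9.01 and 7.30 CPM in I/R hearts, and 9.91, 9.34, 13.3 and 8.67 CPM in Sham hearts. The I/R group held the 2 lowest libraries, I/R 1 and 4, and still overlapped with both others. Its log2 fold change was -0.36 ± 0.18 in I/R against Sham hearts (-0.74 to 0.02, adjusted p = 0.246), and 0.32 ± 0.18 in I/R + ML264 against I/R hearts (-0.06 to 0.69, adjusted p = 0.567). Against Sham hearts, I/R + ML264 hearts differed by -0.04 (-0.42 to 0.34, adjusted p = 0.948). The value for I/R against Sham hearts was -0.21 without Sham library 3 and also -0.21 with Y-linked transcripts as a covariate, and that for I/R + ML264 against I/R hearts was 0.16 without I/R + ML264 library 4. The 2 lowest libraries are those of the I/R group with Ddx3y near 0, at 6.55 to 7.30 CPM, where I/R + ML264 hearts had 7.94 to 10.5 CPM. Among libraries with Ddx3y, Cybb had 8.49 to 13.2 CPM in I/R + ML264 hearts, 9.01 to 9.36 CPM in I/R hearts and 8.67 to 13.3 CPM in Sham hearts. Of 14 monocyte and macrophage markers, Cd14 rose in I/R against Sham hearts (log2 fold change 2.93, adjusted p = 0.00375), while Cx3cr1 (-1.19, adjusted p = 0.0108) and Adgre1 (-0.68, adjusted p = 0.0174) fell, and the other 11 did not pass the test. The markers summed to 131.6 to 158.5 CPM in I/R + ML264 hearts, 136.4 to 161.9 CPM in I/R hearts and 122.0 to 206.4 CPM in Sham hearts. Of 13 neutrophil markers, 10 were tested and 4 rose in I/R against Sham hearts, Clec4e, Trem1 and Clec4d with the smallest adjusted p (0.0159, 0.0194 and 0.021). In that comparison edgeR called 7.75% of all genes tested. DESeq2 called 7 of the 10 there, beside 1779 of 15933 genes tested, and limma voom 3, beside 1442 of 15952. Between I/R + ML264 and Sham hearts edgeR called 0 of them, with 7 at an unadjusted p under 0.05, beside 13% of all genes tested. There DESeq2 called 1 (Trem1), beside 370 of 15933 genes tested, and limma voom 0. Between I/R + ML264 and I/R hearts, edgeR, DESeq2 and limma voom called 0 of the 10. At an unadjusted p under 0.05 edgeR had 1 of them, beside 10.4% of all genes tested, and limma voom 3, beside 11.7%. Their median log2 fold change against Sham hearts was 3.01 in I/R hearts and 2.38 in I/R + ML264 hearts. In I/R + ML264 against I/R hearts it was -0.51. The 13 markers summed to 6.70 to 28.0 CPM in I/R + ML264 hearts, 11.3 to 30.7 CPM in I/R hearts and 5.85 to 8.37 CPM in Sham hearts, where S100a8 and Ly6g had no count. The part of these cells in the level of Cybb was not tested.

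Cyba (chromosome 8, 122424776 to 122432930, minus strand), the membrane partner of both catalytic subunits, averaged 2.197 ± 0.6228 CPM in I/R + ML264 hearts, 1.798 ± 0.3449 CPM in I/R hearts and 2.212 ± 0.6687 CPM in Sham hearts (SD, n = 4 each). The ranges overlapped in every comparison. Ncf1 (chromosome 5, 134220053 to 134229625, minus strand), the organiser that brings the cytosolic subunits to the membrane, averaged 5.31 ± 1.706 CPM in I/R + ML264 hearts, 5.696 ± 0.7069 CPM in I/R hearts and 4.396 ± 0.8142 CPM in Sham hearts. It had the highest log2 fold change of the 10 genes in I/R against Sham hearts, 0.37 ± 0.21 (-0.07 to 0.82, adjusted p = 0.31), with overlapping groups, and 0.24 without Sham library 2. Ncf4 (chromosome 15, 78244801 to 78262580, plus strand), which binds membrane lipids in the phagocyte oxidase, had 7, 17, 9 and 9 counts in I/R + ML264 hearts, 8, 21, 7 and 5 counts in I/R hearts, and 1, 14, 19 and 18 counts in Sham hearts. At this depth its differences were not detectable, since the interval in I/R + ML264 against I/R hearts, -1.32 to 1.26, spans over 2-fold either way. Over the 30 pairs of gene and group, the coefficient of variation was highest for Ncf4 in I/R hearts, at 73.0%, and lowest for Sod3 in I/R hearts, at 3.34%.

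Xdh (chromosome 17, 73883895 to 73950196, minus strand) had 56.7, 86.7, 73.0 and 88.6 CPM in I/R + ML264 hearts 1 to 4, from 1597 to 2687 counts each. It had 43.2, 51.1, 48.9 and 52.1 CPM in I/R hearts, and 60.4, 36.1, 38.1 and 50.1 CPM in Sham hearts. Every I/R + ML264 heart lay above every I/R heart, whereas Sham heart 1 lay above I/R + ML264 heart 1. The groups averaged 76.2 ± 14.8 CPM in I/R + ML264 hearts, 48.8 ± 3.99 CPM in I/R hearts and 46.2 ± 11.3 CPM in Sham hearts (SD, n = 4 each). Xdh was the 1 gene of the 10 whose I/R + ML264 and I/R libraries did not overlap, as was the case for 5.62% of all genes tested in either direction.

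For I/R + ML264 against I/R hearts, the log2 fold change of Xdh was 0.64 ± 0.17 (0.28 to 1.01), which is 1.56-fold with an interval of 1.21 to 2.01. The edgeR p of 0.00222 placed it 178th of 15952 genes and gave an adjusted p of 0.196. DESeq2 gave the same log2 fold change with an adjusted p of 0.0243, the only call among 23 alternative settings, over which the log2 fold change was 0.56 to 0.76 and the adjusted p 0.0243 to 0.416. Without I/R + ML264 library 2 the log2 fold change was 0.58 (edgeR adjusted p = 0.202). For I/R + ML264 against Sham hearts it was 0.72 ± 0.17 (0.36 to 1.09), or 1.65-fold, with a p of 0.00093 and an adjusted p of 0.113 by edgeR. There DESeq2 gave an adjusted p of 0.00317, and edgeR called Xdh without Sham library 1 (0.88, adjusted p = 0.0289) or without I/R + ML264 library 1 (0.84, adjusted p = 0.0274). Over the 23 settings the adjusted p was 0.00317 to 0.297, the highest without I/R + ML264 library 2 (0.65). I/R hearts differed from Sham hearts by 0.08 ± 0.17 (-0.29 to 0.45, adjusted p = 0.827).

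Among libraries with Ddx3y, Xdh had 73.0 to 88.6 CPM in 2 I/R + ML264 hearts, 48.9 to 51.1 CPM in 2 I/R hearts and 36.1 to 60.4 CPM in 4 Sham hearts. Among those with Ddx3y near 0, it had 56.7 to 86.7 CPM in 2 I/R + ML264 hearts and 43.2 to 52.1 CPM in 2 I/R hearts. Since no I/R + ML264 heart overlapped with an I/R heart, any such split keeps that order. With Y-linked transcripts as a covariate the log2 fold change against I/R hearts was 0.63 (edgeR adjusted p = 0.231). The 3 libraries with high Arntl had the 3 lowest levels of Xdh, 36.1 to 43.2 CPM, beside 48.9 to 88.6 CPM in the other 9, and no I/R + ML264 library was among the 3. With Arntl as a covariate the log2 fold change was 0.63 against I/R hearts (edgeR adjusted p = 0.102) and 0.51 against Sham hearts (adjusted p = 0.252). Of 13 endothelial markers, a cell type known to hold xanthine oxidoreductase in many tissues, edgeR called 0 in either comparison of I/R + ML264 hearts, with 2 at an unadjusted p under 0.05 against I/R hearts, beside 10.4% of all genes tested, and 5 against Sham hearts, beside 13% of all genes tested. DESeq2 called 0 against I/R hearts and 1, Flt1, against Sham hearts, beside 370 of 15933 genes tested, and limma voom called 0 in both. In I/R against Sham hearts, Esam and Flt1 rose and Tek and Kdr fell by edgeR, which called 7.75% of all genes tested there. The sum of the 13 markers was 675.5 to 790.7 CPM in I/R + ML264 hearts, 700.3 to 735.7 CPM in I/R hearts and 712.7 to 758.7 CPM in Sham hearts, with overlap between all groups and no marker at 0. The part of these cells in the level of Xdh was not tested.

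**Figure D3:**
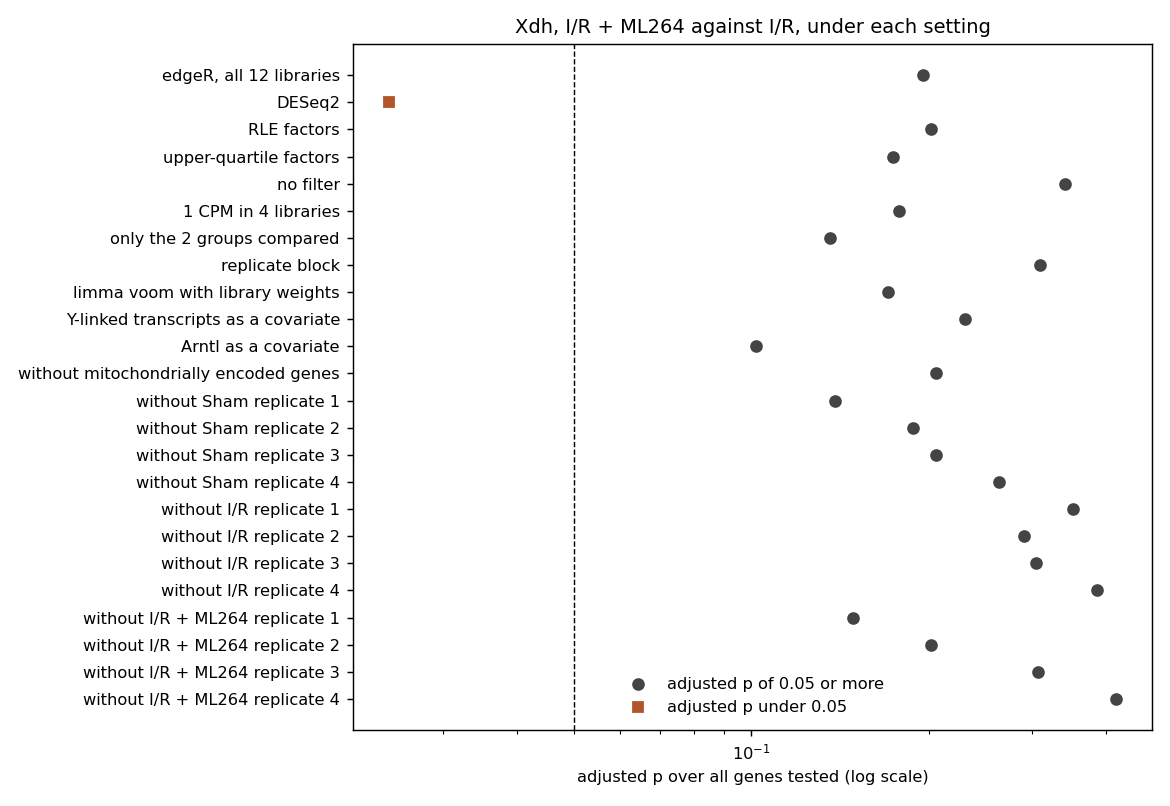
Adjusted p of Xdh over all genes tested (x axis, log scale) in I/R + ML264 against I/R hearts under each setting (y axis), with a dashed line at 0.05. DESeq2, at 0.0243, is the only setting left of the line, and the edgeR fits and limma voom lie between 0.102 and 0.416.

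Sod1 (chromosome 16, 90220754 to 90226329, plus strand), the copper and zinc enzyme of the cytosol, averaged 16.9 ± 1.86 CPM in I/R + ML264 hearts, 15.9 ± 1.85 CPM in I/R hearts and 15.7 ± 2.87 CPM in Sham hearts (SD, n = 4 each), and all groups overlapped. Its estimate is uncertain, because 34.86% of its 31-base words also occur in transcripts of other genes, mainly the pseudogene Gm8566, and reads may be divided between them. For the other 9 genes this share was at most 9.54% (Ncf1). The interval for Sod1 in I/R + ML264 against I/R hearts was -0.20 to 0.36 on the log2 scale (edgeR adjusted p = 0.869).

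Sod2 (chromosome 17, 13006846 to 13040063, plus strand), the manganese enzyme of the mitochondrial matrix, had 155, 183, 149 and 127 CPM in I/R + ML264 hearts. It had 132, 129, 136 and 145 CPM in I/R hearts, and 131, 126, 125 and 135 CPM in Sham hearts. In the I/R + ML264 group, 3 hearts lay above every I/R and Sham heart and heart 4 lay among them. The log2 fold change was 0.25 ± 0.09 in I/R + ML264 against Sham hearts (0.06 to 0.44, edgeR adjusted p = 0.232). Against I/R hearts it was 0.18 ± 0.09 (-0.01 to 0.37, adjusted p = 0.501), and I/R hearts differed from Sham hearts by 0.07 ± 0.09 (-0.12 to 0.26, adjusted p = 0.709). The highest library, I/R + ML264 2, is the one that stood apart. Without it the log2 fold change of Sod2 was 0.15 against Sham hearts (adjusted p = 0.577) and 0.09 against I/R hearts (adjusted p = 0.701), and no other setting gave a lower value in either comparison. Among libraries with Ddx3y, Sod2 had 127 to 149 CPM in I/R + ML264 hearts, 129 to 136 CPM in I/R hearts and 125 to 135 CPM in Sham hearts, which overlapped. Among those with Ddx3y near 0, it had 155 to 183 CPM in 2 I/R + ML264 hearts and 132 to 145 CPM in 2 I/R hearts, which did not overlap, and library 2 is among them. With Y-linked transcripts as a covariate the log2 fold change was 0.17 against Sham hearts (adjusted p = 0.571) and 0.18 against I/R hearts (adjusted p = 0.463).

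Sod3 (chromosome 5, 52363791 to 52371418, plus strand), the secreted dismutase of the extracellular matrix, had 7.98, 3.55, 4.95 and 8.86 CPM in I/R + ML264 hearts. It had 5.86, 6.05, 5.87 and 6.29 CPM in I/R hearts, and 7.24, 7.28, 9.90 and 6.94 CPM in Sham hearts. Every I/R heart lay below every Sham heart, and I/R + ML264 hearts spread from below the lowest I/R heart to above 3 of the 4 Sham hearts. Sod3 was the 1 gene of the 10 whose I/R and Sham libraries did not overlap, as was the case for 15.8% of all genes tested in either direction. The log2 fold change was -0.38 ± 0.23 in I/R against Sham hearts (-0.86 to 0.10, edgeR adjusted p = 0.336). Without Sham library 3, the highest, it was -0.25 (adjusted p = 0.618). The adjusted p was 0.113 to 0.625 over the 23 settings, and among libraries with Ddx3y Sod3 had 5.87 to 6.05 CPM in I/R hearts and 6.94 to 9.90 CPM in Sham hearts. The log2 fold change of Sod3 was 0.07 in I/R + ML264 against I/R hearts (-0.41 to 0.55, adjusted p = 0.944) and -0.31 against Sham hearts (-0.79 to 0.16, adjusted p = 0.6), which leaving out 1 library moved both ways. Against Sham hearts it was -0.11 without I/R + ML264 library 2, which had the lowest level, and -0.18 without Sham library 3, but -0.52 without I/R + ML264 library 4, whose adjusted p of 0.389 was the lowest over the 23 settings (highest 0.91). Between I/R + ML264 and Sham hearts, 0 of the 10 genes had groups that did not overlap, beside 7.37% of all genes tested. Fibroblast markers, from cells that make much of the extracellular matrix, summed to 539.6 to 607.2 CPM in I/R + ML264 hearts, 551.6 to 626.7 CPM in I/R hearts and 501.1 to 595.6 CPM in Sham hearts, with overlap between all groups. EdgeR called 0 of the 10 in any comparison. In I/R against Sham hearts, 3 were at an unadjusted p under 0.05 by edgeR, beside 23.2% of all genes tested. DESeq2 called 1 there and limma voom 0. Of 10 smooth muscle and pericyte markers, Pdgfrb fell in I/R against Sham hearts (-0.44, edgeR adjusted p = 0.00631), where 7.75% of all genes tested were called. The sums of these 10 markers were 1607 to 1872 CPM in I/R + ML264 hearts, 1788 to 2021 CPM in I/R hearts and 1842 to 1956 CPM in Sham hearts. Most of each sum came from Rgs5 and Abcc9. In I/R + ML264, I/R and Sham hearts Rgs5 averaged 961, 1050 and 1041 CPM, and Abcc9 658, 707 and 685 CPM. The part of these cells in the level of Sod3 was not tested.

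Cat (chromosome 2, 103453849 to 103485160, minus strand) had 197, 193, 208 and 241 CPM in I/R + ML264 hearts, 160, 175, 195 and 235 CPM in I/R hearts, and 199.7, 207, 194 and 191 CPM in Sham hearts. The I/R hearts held the 2 lowest libraries, and the groups overlapped. The log2 fold change was -0.05 (-0.26 to 0.16) in I/R against Sham hearts, 0.13 (-0.08 to 0.35) in I/R + ML264 against I/R hearts and 0.08 (-0.13 to 0.30) in I/R + ML264 against Sham hearts, with edgeR adjusted p of 0.817, 0.688 and 0.782. The value in I/R + ML264 against I/R hearts was 0.25 without I/R library 4 (adjusted p = 0.473), 0.09 without I/R library 2, and 0.06 without either I/R library 1 or I/R + ML264 library 4. In each library all of its counts stood on either of 2 transcripts, so no isoform is described. The leading transcript also switched across the table, where 1 of 2462 genes with several transcripts and more than 500 counts in every library had the same leading transcript in all 12 libraries.

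**Figure D4:**
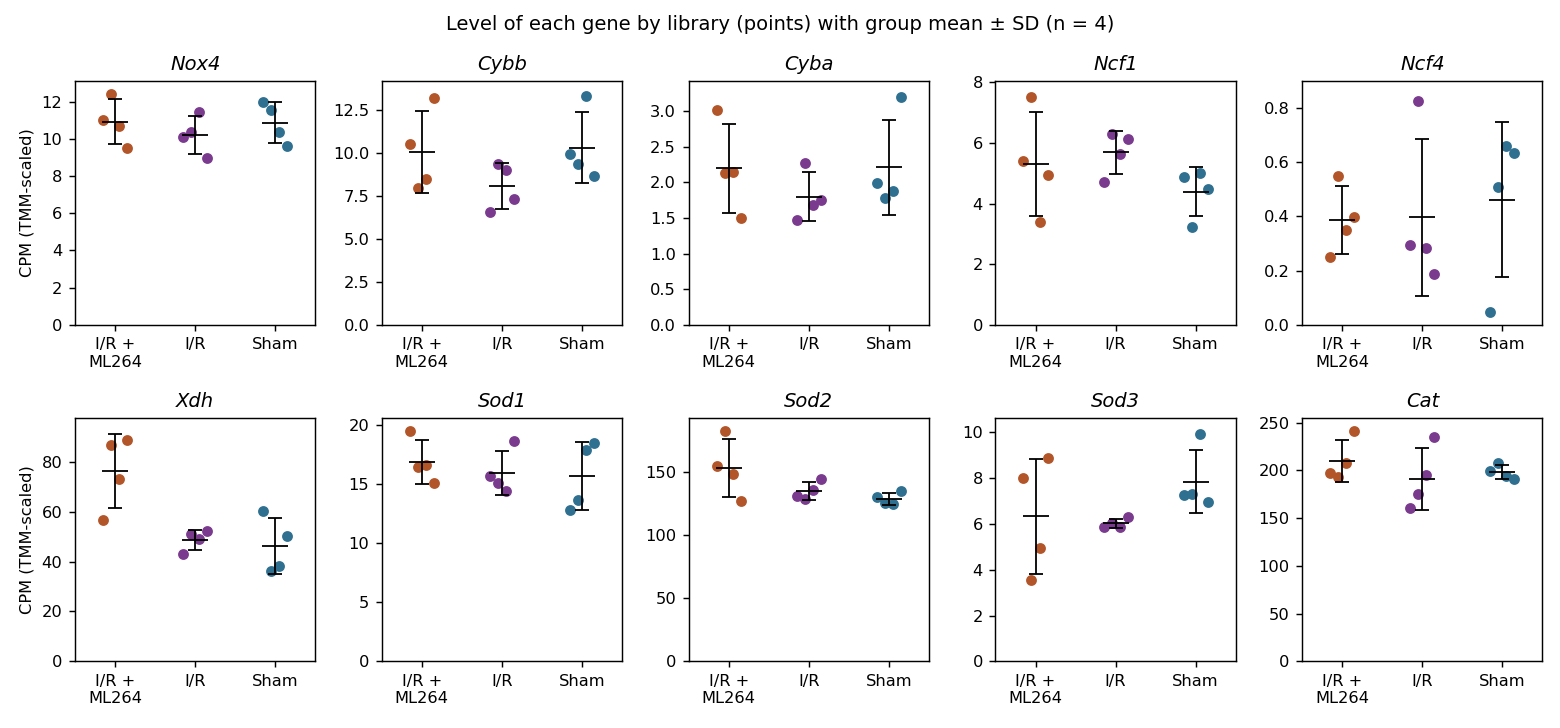
CPM (y axis, TMM-scaled, from 0) of each of the 10 genes in every library (points) for I/R + ML264, I/R and Sham hearts, with the group mean and SD (n = 4) in black. The I/R + ML264 points of Xdh all lie above the I/R points, the I/R points of Sod3 lie close together below the Sham points, and the groups overlap in the other panels. Over all genes tested, 5.62% did not overlap between I/R + ML264 and I/R hearts, and 15.8% between I/R and Sham hearts.

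Genes that act beside these 10 were described from lists by role. Of 15 other NADPH oxidase genes, 14 were in the table and 6 had enough counts to test. EdgeR called 0 in any comparison, and DESeq2 and limma voom called 0. By edgeR, 1 was at an unadjusted p under 0.05 in I/R against Sham hearts, beside 23.2% of all genes tested, and 0 in the others. Their median log2 fold change was 0.14 in I/R against Sham hearts, -0.04 in I/R + ML264 against I/R hearts and 0.05 in I/R + ML264 against Sham hearts. Rac1, a GTPase that takes part in activating the phagocyte oxidase, averaged 122 CPM in I/R + ML264 hearts, 132 CPM in I/R hearts and 116 CPM in Sham hearts. Of 12 tested genes of purine breakdown, which supplies the substrate of Xdh, Ada was called. That call was in I/R against Sham hearts, where edgeR called 7.75% of all genes tested. Ada, which deaminates adenosine, rose in I/R against Sham hearts to 5.36 ± 2.05 CPM, against 2.97 ± 0.453 CPM in Sham hearts (log2 fold change 0.85 ± 0.24, edgeR adjusted p = 0.0384). DESeq2 also called Ada, and limma voom did not. The list had a median log2 fold change of 0.32 in that comparison, -0.07 in I/R + ML264 against I/R hearts and 0.27 in I/R + ML264 against Sham hearts, beside 0.0 over all genes tested in each.

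Of 20 genes of peroxide removal, the step after the dismutases, Txnrd1 was the 1 gene called. It was called in I/R against Sham hearts, beside 7.75% of all genes tested. Txnrd1, the cytosolic thioredoxin reductase, rose in I/R hearts to 31.5 ± 8.30 CPM, against 17.4 ± 2.02 CPM in Sham hearts (log2 fold change 0.85 ± 0.20, edgeR adjusted p = 0.0194). The list had a median log2 fold change of 0.05 in I/R against Sham hearts, -0.03 in I/R + ML264 against I/R hearts and 0.10 in I/R + ML264 against Sham hearts. Of 7 tested genes for copper supply and metal loading of the dismutases, edgeR, DESeq2 and limma voom called 0 in any comparison. By edgeR, 1 of them was under an unadjusted p of 0.05 in I/R against Sham hearts, 1 in I/R + ML264 against I/R hearts and 0 in I/R + ML264 against Sham hearts. Over all genes tested these shares were 23.2%, 10.4% and 13%. A list of 9 other oxidant sources held monoamine oxidases, Shc1, oxidoreductases of the endoplasmic reticulum and nitric oxide synthases. Of these, Shc1 rose in I/R hearts to 19.1 ± 3.06 CPM, against 10.8 ± 0.580 CPM in Sham hearts (0.83 ± 0.12, adjusted p = 0.000717). It was also higher in I/R + ML264 hearts, at 16.9 ± 0.847 CPM (0.65 ± 0.12 against Sham hearts, adjusted p = 0.0282). Shc1 encodes adaptor proteins, the longest of which takes part in mitochondrial peroxide formation. Nos2, the inducible nitric oxide synthase, fell to 1.57 ± 0.280 CPM in I/R hearts, against 3.44 ± 0.151 CPM in Sham hearts (-1.13 ± 0.21, adjusted p = 0.00445). Over all genes tested, edgeR called 7.75% in I/R against Sham hearts and 0.288% in I/R + ML264 against Sham hearts. By DESeq2, 4 of the 9 (Maoa, Nos2, Nos3 and Shc1) were called in I/R against Sham hearts, beside 1779 of 15933 genes tested. Limma voom called 3 there (Nos2, Nos3 and Shc1), beside 1442 of 15952. In I/R + ML264 against Sham hearts DESeq2 called 3 of the 9 (Nos2, Nos3 and Shc1), beside 370 of 15933. Limma voom called 1 there (Shc1), beside 41 of 15952. Against Sham hearts, Nos3 had a log2 fold change of 0.89 in I/R hearts (edgeR adjusted p = 0.0795) and 0.90 in I/R + ML264 hearts (0.196). In I/R + ML264 against I/R hearts, edgeR, DESeq2 and limma voom called 0 genes in any of these 5 lists. Unadjusted p under 0.05 by edgeR was there found for 0 of 6 other oxidase genes, 1 of 12 purine genes, 3 of 20 peroxide genes, 1 of 7 metal genes and 1 of 9 other sources. The share over all genes tested was 10.4%.

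The 2 genes whose log2 CPM followed each of the 10 most closely over the 12 libraries were looked up among 10805 other genes, as a description of likeness with no test. For Xdh these were OR4P4, a symbol of the table, and Prodh, both with a Pearson r of 0.92. For Sod3 they were Pdik1l and Capza1 (0.92 each), for Cat Dhrs9 (0.88) and Ssr3 (0.87), for Sod2 Olfr734 (0.88) and Klhl41 (0.83), and for Sod1 Ado (0.85) and H2afz (0.84). For the oxidase genes they were Rasgrf1 (0.89) and Ulk3 (0.87) for Nox4, Ccdc88c (0.90) and Ehd2 (0.89) for Cybb, Mmadhc (0.88) and Myo15 (0.85) for Cyba, Phactr1 and Atxn1 (0.95 each) for Ncf1, and St6gal1 (0.88) and Sfxn4 (0.85) for Ncf4. The libraries share depth, group and the differences named above, and with 12 libraries and this many genes high values of r can arise without any relation.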

How the data were processed

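The authors deposited unnormalized estimated counts for each transcript in 12 libraries of frozen mouse heart. The tools were FastQC and kallisto, with GRCm38 (mm10), per the submitters' processing notes, with versions and annotation release not given in the sources used here. Library preparation with the Nextera XT kit, per the labels' protocols, does not mark strand. Of the values, 45.8% were not whole. Kallisto divides reads between transcripts that share sequence. The leading transcript of a gene also switched between libraries. For 89.3% of 2462 genes with several transcripts and more than 500 counts in every library, the same transcript led in at most 6 libraries. The cause was not tested, and whether each transcript label matches its values is not known. All rows of a gene symbol were therefore added up and the sum rounded. Of the transcript IDs, 94.7% stood in GENCODE M21 in the same version.

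Genes passing filterByExpr (minimum count 10) numbered 15952. The 3 comparisons were fitted in 1 model over 12 libraries with R 4.3.3 and edgeR 4.0.16 (TMM normalization, robust quasi-likelihood F-test, Benjamini-Hochberg over all genes tested, threshold 0.05, biological coefficient of variation 0.205), tested on simulated data. In simulated counts with known changes between I/R and Sham, 24.5% of genes changed 1.5-fold and 58.2% of those changed 2-fold were called. Of 83 calls, 2 were false. Changes of this size can therefore go uncalled. The changed genes, 98 of each size, were drawn at random from all levels. With 1236 calls in I/R against Sham hearts, the adjusted p was harder to pass in the simulation than there. These shares therefore need not hold for the 10 genes. Alternatives were DESeq2 1.42.0, limma 3.58.1 voom with library weights, other factors, filters and samples, covariates for Y-linked transcripts and Arntl, mitochondrial genes left out, a replicate block, and each library left out. Replicate libraries differed beyond counting noise in every pair. Intervals are from the fit, and reads carry no molecular identifiers.

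The 10 genes and the other gene lists were chosen with earlier results of these data known. Genes named were the 10 genes and the 2 genes most like each of them. Of each other list, up to 3 called genes with the smallest adjusted p were named. Rac1, Ddx3y, Arntl, Kdr, Rgs5, Abcc9, Nos3 and Maoa were named after their values were seen.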

Additional observations from a re-analysis of the deposited data

Results flagged for a closer look

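Over the 30 combinations of gene and group, 3 groups of 4 libraries held a library whose gap to its nearest neighbour took up more of the whole range of the group than Dixon's critical value for 4 samples allows. Chance gives such a gap in about 1 in 20 groups. Cyba had 3.206 CPM in Sham library 4, the highest of its group. Ncf4 had 0.8256 CPM in I/R library 2, the highest of its group, from 21 counts. Sod3 had 9.9 CPM in Sham library 3, the highest of its group, and the other Sham libraries also lay above all I/R libraries.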

How the results depend on the processing

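The 30 log2 fold changes of the 10 genes were recomputed under 23 alternatives, which gave 686 values. Of these, 648 kept their direction and their side of the threshold, 34 changed sign with none called by any tool (smallest adjusted p 0.72), and 4, all Xdh, passed the threshold; the cause was not tested. In I/R against Sham hearts the sign turned for Sod1 (-0.02 with upper-quartile factors, -0.02 with limma voom, -0.09 with the Y-linked covariate), Ncf4 (0.02) and Sod2 (-0.02), both with the Y-linked covariate, and Xdh (-0.12 with the Arntl covariate). In I/R + ML264 against I/R hearts it turned for Ncf4 (0.01 with the replicate block, 0.03 with the Y-linked covariate). In I/R + ML264 against Sham hearts it turned for Nox4 (-0.02 with upper-quartile factors), Cybb (0.02 with limma voom, 0.11 with the Y-linked covariate), Ncf4 (0.06 with the Y-linked covariate) and Cat (-0.03 with the Arntl covariate). With 1 library left out at a time, the ranges that crossed 0 were, in I/R against Sham hearts, -0.03 to 0.23 for Xdh, -0.06 to 0.11 for Sod1 and -0.16 to 0.03 for Cat. In I/R + ML264 against I/R hearts they were -0.31 to 0.07 for Ncf1, -0.26 to 0.60 for Ncf4 and -0.13 to 0.27 for Sod3, and against Sham hearts -0.06 to 0.07 for Nox4, -0.20 to 0.11 for Cybb and -0.20 to 0.23 for Cyba. Xdh was called by DESeq2 in both comparisons of I/R + ML264 hearts (0.64 and 0.72, so 1 of the 10 genes called in each), and against Sham hearts leaving out a library gave 0 to 1 genes called and 0.62 to 0.88 for Xdh.

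Over all genes, 1236 calls in I/R against Sham hearts became 409 with the Y-linked covariate, 623 with the Arntl covariate and 659 to 1485 with a library left out. The 8 calls in I/R + ML264 against I/R hearts became 153 with DESeq2, 22 with no filter, 1 with the replicate block and 0 to 85 with a library left out (85 without I/R + ML264 library 2). The 46 calls against Sham hearts became 370 with DESeq2, 78 with no filter, 27 with only the 2 groups compared, 19 with the replicate block, 17 with the Y-linked covariate, 12 with the Arntl covariate and 9 to 101 with a library left out. Same-numbered libraries did not deviate together (correlations -0.11 to 0.097 over 12 pairs), so the replicate block joins libraries that share only a number. It called 0 of the 10 genes in any comparison and 1009 of all genes in I/R against Sham hearts. Low counts limit Ncf4, with 1 to 21 per library.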
